A study of Mus musculus with 12 samples.

Results

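The collagen genes of mouse fibroblasts were followed over a course of polyamine depletion. Collagen genes were taken as all transcript clusters (the probe sets of 1 transcript on the array) whose annotation held exactly 1 symbol made of Col, a number, a and a number, with the cluster of highest mean kept for each gene. The rule found 46 clusters of 44 genes among the 19938 genes tested, and Col6a5 and Col6a6 were the only ones with more than 1 cluster. The 44 genes comprised 11 fibrillar, 9 network, 9 FACIT, 6 microfibrillar, 4 transmembrane and 2 multiplexin collagens, 1 anchoring fibril collagen and 2 others.

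Collagens are the main structural proteins of the extracellular matrix, each built from 3 chains wound into a triple helix. Fibrillar collagens such as types I, III and V assemble into the banded fibrils that give connective tissue its tensile strength, and fibroblasts are their chief source. Network collagens form sheets, of which type IV in basement membranes is the best known, and type VI forms beaded microfilaments near the cell surface from its α1, α2 and α3 chains. FACIT collagens (fibril-associated collagens with interrupted triple helices) do not form fibrils of their own and sit on the surface of fibrils made of other types.

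The cells were NIH3T3, an established mouse fibroblast line, grown in DMEM with 10% FCS. They received 1 mM difluoromethylornithine (DFMO) a day after seeding. DFMO inhibits ornithine decarboxylase, which makes putrescine, the first polyamine. The G1 fraction was sorted, and its total RNA was hybridised to Affymetrix MoGene 1.0 ST arrays. There were 3 arrays of untreated cells, and 2, 3, 2 and 2 arrays of cells held in DFMO for 12, 24, 48 and 96 h, all labelled as biological replicates. The question was how transcripts respond in time to the loss of polyamines. The series text places the untreated cells at 0 h, so drug exposure and time in culture rose together and cannot be told apart. All 4 times were compared with the same 3 untreated arrays. Whether replicates came from separate cultures is not stated beyond that label, so p-values measure only the spread between these arrays.

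The deposited values are log2 intensities that ran from 2.53 to 13.18, with array medians of 4.13 to 4.20, and replicate arrays correlated across genes at r = 0.994 to 0.998. Background remains in such values. A floor was therefore set at 4.27 log2 units, the 95th percentile of the group means of 1015 olfactory receptor genes, which fibroblasts should mostly lack. A gene was counted as at or above the floor when its highest group mean reached it, which 9960 genes did. Of 12 fibroblast markers, 9 were at or above the floor, Vim among them, while Lum, Tcf21 and Fap were below it. Endothelial and osteoblast markers were below it throughout (0 of 8 and 0 of 4), and 2 of 11 leukocyte, 2 of 10 epithelial, 1 of 8 chondrocyte and 1 of 8 adipocyte markers reached it. Of the myofibroblast and smooth muscle markers 5 of 7 reached it, with Acta2 at 11.88 in untreated cells. In bulk RNA, fewer cells expressing a gene and less of its RNA per cell cannot be told apart.

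Of the 44 collagen genes, 19 were at or above the floor and 18 of these already were in untreated cells. They comprised 7 of 11 fibrillar genes (Col1a1, Col1a2, Col3a1, Col5a1, Col5a2, Col5a3 and Col11a1), 5 of 9 network genes (Col4a1, Col4a2, Col4a5, Col4a6 and Col8a1), 3 of 9 FACIT genes (Col12a1, Col16a1 and Col20a1), 3 of 6 microfibrillar genes (Col6a1, Col6a2 and Col6a3) and the transmembrane gene Col23a1. Col5a3, Col11a1 and Col23a1 sat on the floor itself, between 4.05 and 4.54 on every array. The other 25 genes stayed between 3.37 and 4.34 on all 12 arrays, and 0 of them were called at any time. They included the cartilage collagens Col2a1, Col9a1, Col9a2, Col9a3, Col10a1 and Col11a2, the kidney basement membrane chains Col4a3 and Col4a4, the anchoring fibril gene Col7a1, and the multiplexins Col15a1 and Col18a1.

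**Figure D1:**
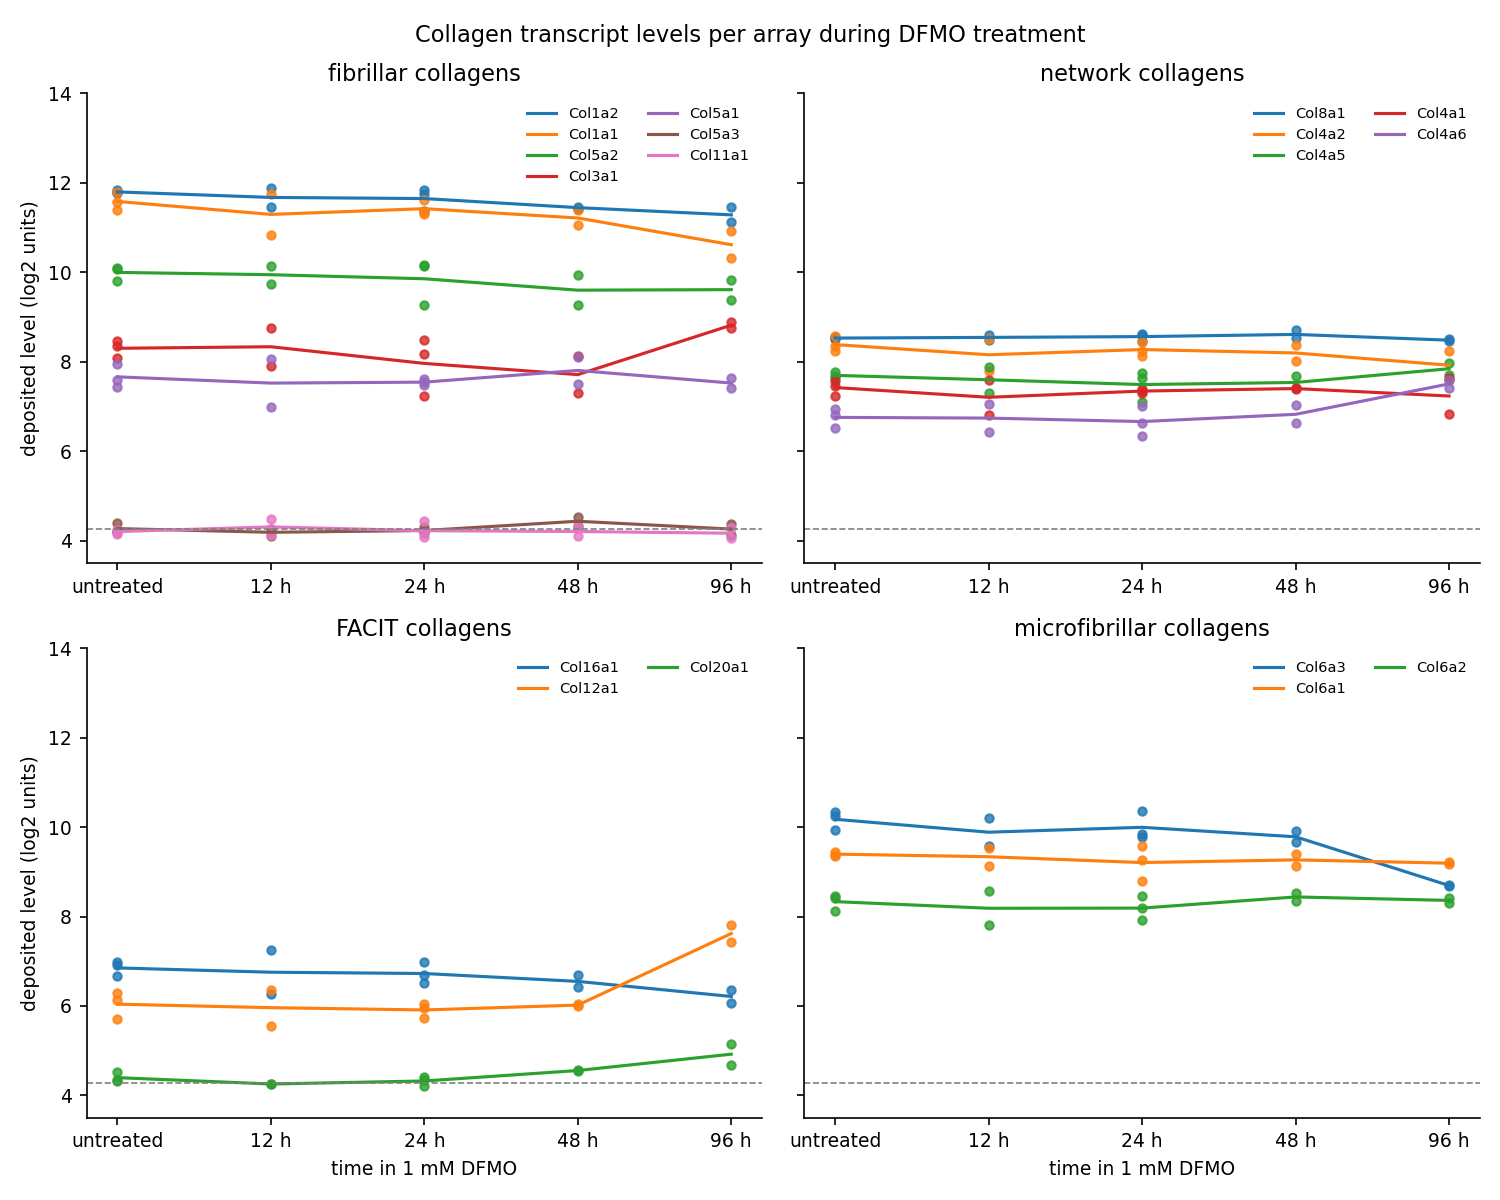
Deposited level (log2 units, vertical axis) of the collagen genes at or above the floor against time in 1 mM DFMO, in panels by class. Points are arrays, lines join group means, and the dashed line is the floor at 4.27. Most lines are level until 48 h, after which Col12a1 climbs to 7.62 and Col6a3 drops to 8.69.

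The collagen calls came at 96 h. At that time of DFMO, 2 genes rose and 3 fell relative to untreated cells (limma, Benjamini-Hochberg adjusted p under 0.05 over all genes). The 2 that rose were FACIT collagens, Col12a1 and Col20a1. The 3 that fell were Col6a3 of the microfibrils and both chains of type I collagen, Col1a1 and Col1a2. The 5 genes are 11.4% of the 44, where 21.9% of all genes were called, 11.8% higher and 10.1% lower. Among genes at or above the floor, the calls were 26.3% of 19 collagens, where 42.3% of all 9960 genes were called. The median change of the collagens at 96 h was -0.01 log2 units, and that of all genes 0.00.

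Earlier in the course 0 collagen genes were called in any comparison with untreated cells. At 12 h and at 24 h limma called 0% of all genes, and 1 collagen gene had an unadjusted p under 0.05 each time. At 48 h, when 5.82% of all genes were called, 2 collagen genes had an unadjusted p under 0.05. Between neighbouring times the limma counts were 0 for 24 h against 12 h (0% of all genes, and 1 collagen gene with an unadjusted p under 0.05) and 0 for 48 h against 24 h (1.67% of all genes, and 0 collagen genes with an unadjusted p under 0.05). From 48 h on, Col12a1 rose and Col6a3 fell in the step to 96 h, for which 8.64% of all genes were called. The F test over the 4 times called 3 collagen genes, Col12a1, Col6a3 and Col20a1, and 17.0% of all genes.

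**Figure D2:**
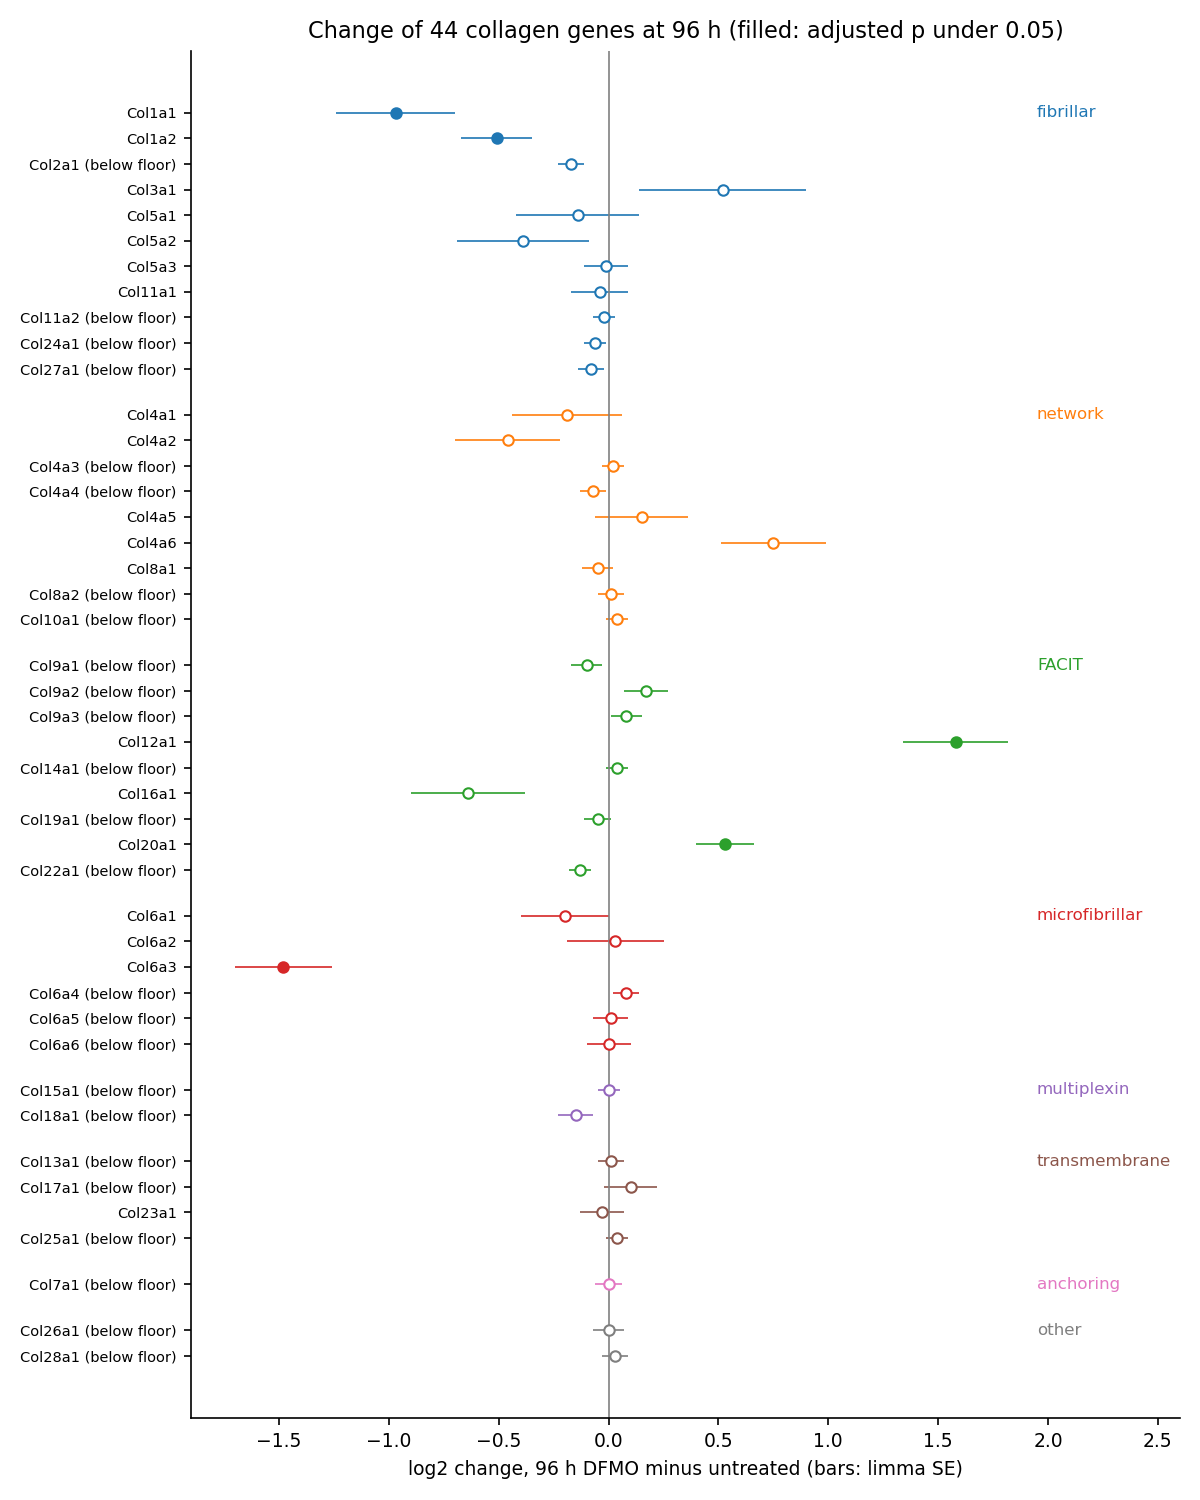
Log2 change of each of the 44 collagen genes at 96 h of DFMO minus untreated, with bars for limma's standard error and classes marked by colour. Filled points passed an adjusted p under 0.05. The points of Col12a1 at 1.58 and Col6a3 at -1.48 stand farthest from 0, and genes below the floor lie between -0.17 and 0.17.

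The largest rise among the collagens at 96 h was that of the FACIT gene Col12a1. It was not shared by the class, as Col20a1 rose less and near the floor, and Col16a1 was lower without a call. Col12a1 encodes the chain of type XII collagen, which lies along type I fibrils in dense connective tissue. Its log2 level was 6.13, 6.29 and 5.71 on the untreated arrays, 6.37 and 5.56 at 12 h, 5.74, 5.95 and 6.05 after 24 h, 6.05 and 5.99 at 48 h, and 7.81 and 7.43 at 96 h. Both 96 h arrays lay above every earlier array, and the earlier groups overlapped one another. The mean was 7.62 ± 0.27 (SD, n = 2) at 96 h and 6.04 ± 0.30 (SD, n = 3) in untreated cells, a change of 1.58 ± 0.24 (SE) or 2.99-fold (limma, adjusted p = 0.0011). This rise came in the last step, where the 96 h level exceeded the 48 h level by 1.60 ± 0.26 (SE; limma, adjusted p = 0.00519). At 12, 24 and 48 h the change from untreated was -0.08, -0.13 and -0.02.

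Col20a1, which encodes the type XX chain, changed near the floor. Its log2 level was 4.35, 4.53 and 4.32 on the untreated arrays, 4.26 and 4.26 at 12 h, 4.41, 4.36 and 4.21 after 24 h, 4.56 and 4.56 at 48 h, and 5.16 and 4.69 at 96 h. The 96 h arrays were the highest, but they differed from each other by more than any other group's arrays did. The change at 96 h was 0.53 ± 0.13 (SE), 1.44-fold (limma, adjusted p = 0.0135). Without the first 96 h array it was 0.29 (limma, adjusted p = 0.101). Background remains in values near the floor and the 96 h arrays were far apart, so the size of this fold is uncertain.

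The third expressed FACIT gene, Col16a1, was lower at 96 h without passing the test. Its level was 6.36 and 6.07 at 96 h, and 6.97, 6.92 and 6.66 in untreated cells, so the groups did not overlap. The change was -0.64 ± 0.26 (SE; limma, adjusted p = 0.124). The remaining 6 FACIT genes were below the floor.

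Of the 3 expressed chains of type VI microfibrils, 1 fell and 2 were not called. Col6a3 encodes the α3 chain, which joins α1 and α2 in the type VI molecule and also carries the C-terminal piece released as endotrophin. Its log2 level was 10.25, 10.34 and 9.93 on the untreated arrays, 10.19 and 9.58 at 12 h, 9.84, 10.36 and 9.78 after 24 h, 9.66 and 9.90 at 48 h, and 8.69 and 8.70 at 96 h. Both 96 h arrays were below every other array, and the 48 h arrays were below all untreated arrays. The mean was 8.69 ± 0.01 (SD, n = 2) at 96 h and 10.17 ± 0.22 (SD, n = 3) in untreated cells, a change of -1.48 ± 0.22 (SE), 2.79-fold lower (limma, adjusted p = 0.000897). In the step from 48 h to 96 h the change was -1.09 ± 0.24 (SE; limma, adjusted p = 0.0208), and leaving out any 1 of the 4 arrays of that step ended the call, with adjusted p up to 0.12.

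Its partner Col6a1, the α1 chain, had 9.17 and 9.21 at 96 h and 9.45, 9.37 and 9.36 in untreated cells. The change was -0.20 ± 0.20 (SE; limma, adjusted p = 0.61), and the 96 h arrays lay just under the untreated ones. Col6a2, the α2 chain, had 8.41 and 8.31 at 96 h and 8.47, 8.41 and 8.12 in untreated cells, overlapping groups with a change of 0.03 ± 0.22 (SE; limma, adjusted p = 0.967). Col6a4, Col6a5 and Col6a6, whose products can stand in for α3 in some tissues, were below the floor at every time.

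Promoter sequences of the type VI chains that diverged are shown because Col6a3 and Col6a1 encode partners of 1 molecule, with that of Col1a2 as a chain whose level fell less. Each window holds 250 bases before and 50 after a RefSeq transcript start on GRCm38.p6, 5′ to 3′ on the gene's strand. Capitals mark matches on either strand to 5 motifs: TATAAA (the TATA box), CCAAT (the CCAAT box), GGGCGG (a GC box), TGANTCA (the AP-1 site) and GGAATG (a TEAD site). Overlapping matches were all marked.
Col6a3, chr1:90843922-90844221, minus strand: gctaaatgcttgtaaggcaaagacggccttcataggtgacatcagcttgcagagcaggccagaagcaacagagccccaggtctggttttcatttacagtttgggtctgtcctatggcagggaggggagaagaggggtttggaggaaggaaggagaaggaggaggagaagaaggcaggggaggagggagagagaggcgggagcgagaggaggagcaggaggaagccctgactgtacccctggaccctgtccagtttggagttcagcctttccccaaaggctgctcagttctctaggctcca
Col6a1, chr10:76725995-76726294, minus strand: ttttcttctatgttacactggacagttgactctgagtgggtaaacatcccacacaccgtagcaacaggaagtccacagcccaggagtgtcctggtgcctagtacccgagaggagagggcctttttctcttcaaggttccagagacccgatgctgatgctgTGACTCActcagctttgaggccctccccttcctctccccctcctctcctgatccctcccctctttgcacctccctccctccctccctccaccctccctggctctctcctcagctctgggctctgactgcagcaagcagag
Col1a2, chr6:4505368-4505667, plus strand: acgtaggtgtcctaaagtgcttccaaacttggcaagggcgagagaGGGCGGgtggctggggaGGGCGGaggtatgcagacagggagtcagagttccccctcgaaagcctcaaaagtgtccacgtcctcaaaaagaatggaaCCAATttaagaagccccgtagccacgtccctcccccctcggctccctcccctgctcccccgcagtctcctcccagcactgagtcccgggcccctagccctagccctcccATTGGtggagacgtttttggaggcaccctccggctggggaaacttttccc

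The Col6a3 window held no match to these letters, the Col6a1 window had 1 TGANTCA match, and the Col1a2 window had 2 CCAAT and 2 GGGCGG matches. The table held 38 windows for 35 of the 44 collagen genes. Among them 60.5% held GGGCGG, against 35.7% of 32851 windows of all genes, 34.2% held CCAAT (37.4% of all), 13.2% TATAAA (13.6%), 13.2% GGAATG (14.7%) and 2.63% TGANTCA (7.81%). These matches describe the letters in the windows only.

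Fibrillar collagens were led by type I, whose molecule holds 2 α1 chains and 1 α2 chain. Col1a1, the α1 chain, had log2 levels of 11.58, 11.80 and 11.39 on the untreated arrays, 11.75 and 10.84 at 12 h, 11.36, 11.62 and 11.30 after 24 h, 11.39 and 11.05 at 48 h, and 10.93 and 10.31 at 96 h. Both 96 h arrays were below all untreated arrays, although the second 12 h array lay between them. The mean was 10.62 ± 0.44 (SD, n = 2) at 96 h and 11.59 ± 0.21 (SD, n = 3) in untreated cells, a change of -0.97 ± 0.27 (SE), 1.96-fold lower (limma, adjusted p = 0.0285). The call ended without untreated replicate 1 (adjusted p = 0.0686), untreated replicate 2 (0.0902) or 96 h replicate 2 (-0.66, adjusted p = 0.247).

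Col1a2, the α2 chain, changed less. It had 11.77, 11.84 and 11.80 on the untreated arrays, 11.89 and 11.47 at 12 h, 11.37, 11.84 and 11.75 after 24 h, 11.43 and 11.47 at 48 h, and 11.45 and 11.12 at 96 h. The 48 h and 96 h arrays were all below the untreated ones, as were 12 h replicate 2 and 24 h replicates 1 and 3. The change at 96 h was -0.51 ± 0.16 (SE), 1.43-fold lower (limma, adjusted p = 0.0465), and at 48 h -0.35 (limma, adjusted p = 0.263). The 96 h call was lost in 11 of 21 alternative settings, among them the replicate number as a block (-0.49, adjusted p = 0.1) and the fit without 96 h replicate 2 (-0.35, adjusted p = 0.33).

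The other expressed fibrillar genes were not called. Col3a1, the single chain of type III collagen, which is laid down beside type I, had 8.76 and 8.89 at 96 h and 8.10, 8.36 and 8.46 in untreated cells. Its 96 h arrays were above every untreated array, and the 24 h and 48 h arrays ranged from 7.23 to 8.50. The change of 0.52 ± 0.38 (SE) did not pass (limma, adjusted p = 0.464). Col5a1 and Col5a2, the chains of type V collagen, which starts fibrils and limits their width, changed by -0.14 and -0.39 (limma, adjusted p = 0.841 and 0.486) with overlapping arrays. Over the 11 fibrillar genes 0 rose and 2 fell at 96 h, with a median change of -0.08. Of all genes 10.1% were called lower, and 19.7% of those at or above the floor. For the 7 fibrillar genes at or above the floor the median was -0.14 at 96 h. At 48 h it was -0.35, with changes of -0.59 to 0.16 and 0 calls.

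Network collagens gave 0 calls in either direction at 96 h with limma, 1 unadjusted p under 0.05 and a median change of 0.01 over 9 genes. Of all genes 21.9% were called, and 42.3% of those at or above the floor. The 5 network genes at that level changed by -0.46 to 0.75, with a median of -0.05. Col4a1 and Col4a2, which together form the common type IV network, changed by -0.19 ± 0.25 and -0.46 ± 0.24 (SE; limma, adjusted p = 0.732 and 0.251). Their 96 h arrays were 7.64 and 6.83 for Col4a1 and 8.25 and 7.60 for Col4a2, wider apart than the untreated arrays, and overlapped with them. Col4a6, the α6 chain of the type IV network that also holds α5, came closest to the threshold. It had 7.41 and 7.60 at 96 h and 6.94, 6.82 and 6.52 in untreated cells, groups that did not overlap, with a change of 0.75 ± 0.24 (SE; limma, adjusted p = 0.0507). Its partner Col4a5 changed by 0.15 ± 0.21 (SE; limma, adjusted p = 0.748). Col8a1, a short-chain collagen of vessel and corneal membranes, varied by 0.25 over all 12 arrays.

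By class at 96 h, the count was 2 higher and 0 lower of 9 FACIT genes and 0 higher and 2 lower of 11 fibrillar genes. It was 0 higher and 1 lower of 6 microfibrillar genes, and 0 of 9 network genes. Of all genes 11.8% were called higher and 10.1% lower. Among genes at or above the floor, the calls were 2 of 3 FACIT, 2 of 7 fibrillar, 1 of 3 microfibrillar and 0 of 5 network genes. Of all genes at that level 42.3% were called. The class counts are too small to set against these shares. The difference between classes was not tested. The count of 0 network genes rested on Col4a6, which was called when genes of low level were left out (adjusted p = 0.0159), when the variance followed intensity (0.0234) or when only these groups entered the fit (0.0126).

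Within-array differences between chains that share a molecule or a locus remove what moved both genes of a pair alike on an array. The Col6a3 minus Col6a1 difference changed by -1.28 at 96 h relative to untreated, and Col6a3 minus Col6a2 by -1.51, while Col6a2 minus Col6a1 changed by 0.23. Col1a1 minus Col1a2 changed by -0.45, Col4a1 minus Col4a2 by 0.27, Col4a6 minus Col4a5 by 0.60 and Col3a1 minus Col5a2 by 0.90. In these 7 pairs the 96 h arrays did not overlap with the untreated ones. The 2-sided exact permutation p was 0.2 for each, the smallest that 2 against 3 arrays allow, so this test cannot decide whether a pair changed. How often other gene pairs separate in this way was not tested. For Col6a2 minus Col6a1, Col1a1 minus Col1a2 and Col4a1 minus Col4a2, the 96 h range overlapped with that of an earlier DFMO time. The rest of these pairs had no such overlap. Col5a1 minus Col5a2 changed by 0.25 with overlapping arrays (exact permutation p = 0.4).

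**Figure D3:**
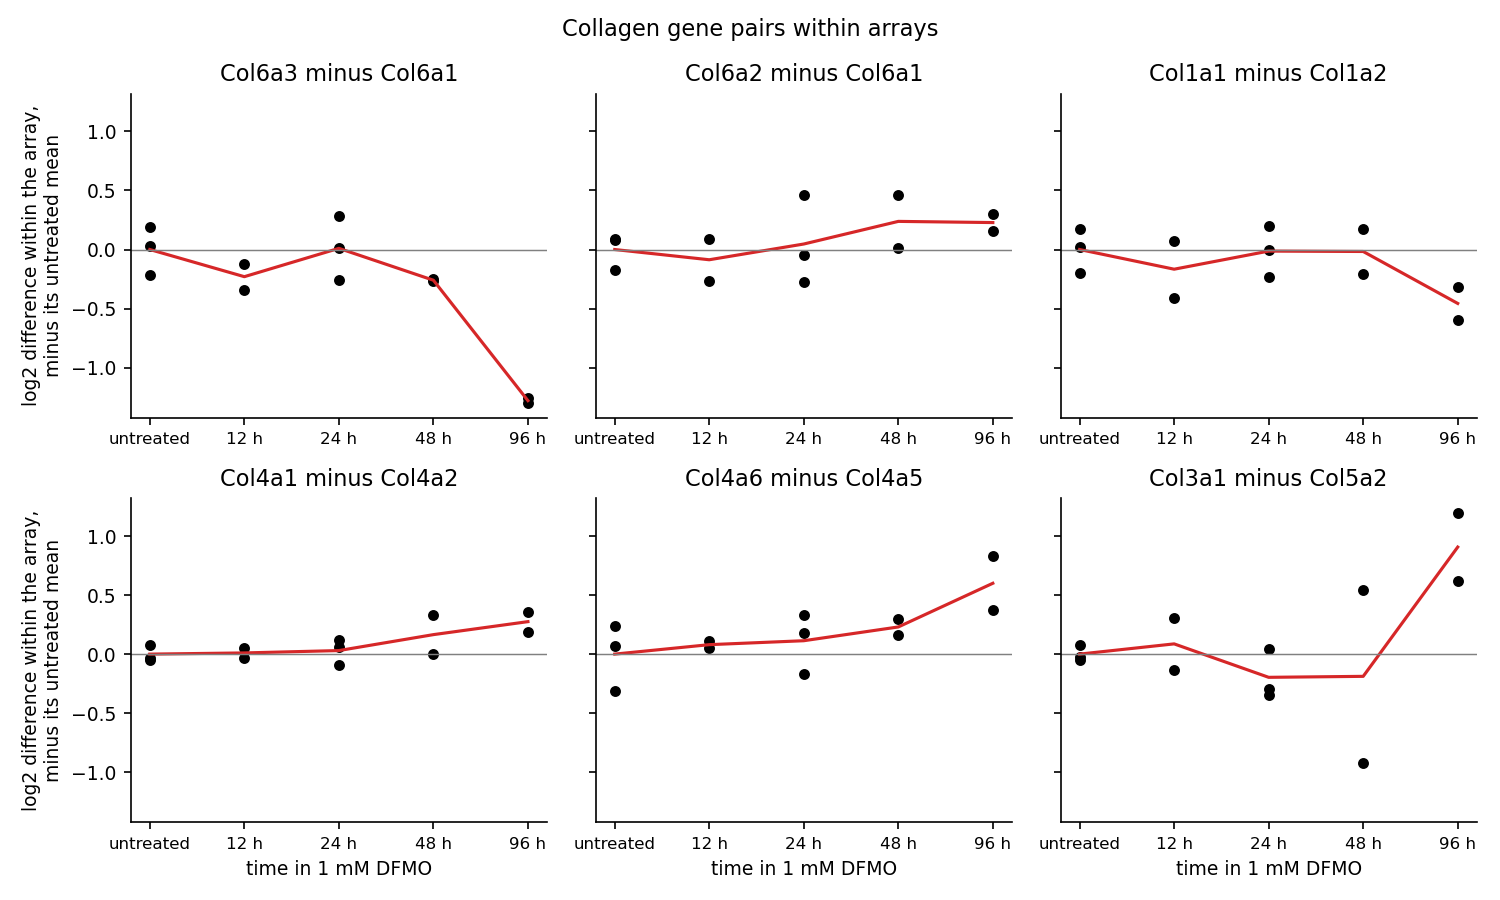
Log2 difference between 2 collagen genes within each array, minus its mean over the untreated arrays, against time in 1 mM DFMO for 6 pairs. Points are arrays and red lines join group means. The 6 pairs are Col6a3 and Col6a2 against Col6a1, Col1a1 against Col1a2, Col4a1 against Col4a2, Col4a6 against Col4a5, and Col3a1 against Col5a2. Both 96 h arrays of Col6a3 against Col6a1 lie close to -1.28.

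Neighbouring collagen genes were set side by side. In the RefSeq annotation of GRCm38.p6, 8 pairs of collagen genes lie within 100 kb of each other. Col4a1 and Col4a2 are transcribed away from each other, as are Col4a6 and Col4a5, and Col6a2 and Col6a1 run in the same direction. The members of the Col4a1 and Col4a2 pair changed by -0.19 and -0.46 at 96 h, and those of the Col4a6 and Col4a5 pair by 0.75 and 0.15. Col3a1 and its neighbour Col5a2 had changes of opposite sign, 0.52 and -0.39, neither called. Col6a3, on another chromosome than Col6a1 and Col6a2, was the type VI gene that fell.

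Some arrays were low for many collagens at once. Of the 19 genes at or above the floor, 17 were lower on the second 12 h array than on the first, and the median deviation from the group mean was -0.31 on the second and 0.31 on the first. Over all genes at or above the floor the same medians were 0.01 and -0.01. The first 24 h array was the lowest of its group in 15 of 19 collagens, and the second 96 h array in 14 of 19, Col1a1, Col1a2 and Col12a1 among them. Untreated replicate 3, 12 h replicate 2 and 24 h replicate 3 deviated from their groups in a similar way across genes (r = 0.318 and 0.581 with untreated replicate 3). Without these 3 arrays Col12a1, Col6a3 and Col1a1 kept their calls at 96 h, while Col1a2 (adjusted p = 0.0772) and Col20a1 (0.0646) lost theirs. With the 3 as a block Col1a2 had an adjusted p of 0.0507.

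Marker levels of several cell types also differed at 96 h. The summed log2 level of 12 fibroblast markers was 95.98 to 96.72 at 96 h, against 94.27 to 94.62 in untreated cells. Dcn, a proteoglycan that binds type I fibrils, had a mean of 8.09 at 96 h and 3.72 in untreated cells. Without Dcn, left out after its values were seen, the direction turned, with sums of 88.11 to 88.40 at 96 h and 90.57 to 90.87 in untreated cells. That turn rested largely on Thy1, which had 5.97 at 96 h and 8.32 in untreated cells, with Pdgfra at 7.27 and 8.25. Vim (12.04 and 12.30) and S100a4 (10.68 and 10.96) were lower by less. Other markers of the list were higher at 96 h, Fn1 at 12.39 and 11.68, Fbln2 at 10.98 and 10.40, and Pdgfrb at 9.75 and 9.37. The 11 leukocyte markers summed to 42.65 to 43.04 at 96 h, against 41.08 to 41.44 in untreated cells, with Lyz2 at 6.25 and 4.34, while the defining marker Ptprc was below the floor at 3.35 and 3.36. The 10 epithelial markers summed to 39.51 to 39.65 at 96 h, against 40.77 to 41.47 in untreated cells, with Krt14 at 7.01 and 8.83 and Cdh1 at 4.62 and 4.04, while the defining marker Epcam was below the floor at 3.45 in both. The 8 adipocyte markers summed to 31.94 to 32.56 at 96 h, against 32.81 to 33.11 in untreated cells, with Lpl alone above the floor. The 8 endothelial markers, all below the floor, summed to 28.42 to 28.58 at 96 h, against 28.09 to 28.35 in untreated cells. The sums of chondrocyte, osteoblast, and myofibroblast and smooth muscle markers overlapped between 96 h and untreated arrays, although Tagln differed between the 96 h arrays, at 8.45 and 10.17. The part of these shifts in the collagen changes was not tested.

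A list of 57 genes that make, export, process, bind or break down collagen, of which 53 were measured and 36 reached the floor, was read in the same fit. At 48 h limma called 0 higher and 5 lower, 9.43% of the 53, where 3.17% of all genes and 6.03% of genes at or above the floor were called lower. At 96 h it called 4 higher and 11 lower, 28.3% of the 53, with a median change of -0.04. Of all genes 21.9% were called, and of genes at or above the floor 42.3%, with 19.7% lower. All 15 genes called at 96 h, like the 5 called at 48 h, were among the 36 that reached the floor. The share to set beside 42.3% is thus 15 of 36 and not the 28.3%. At 48 h 11.3% of genes at or above the floor were called in either direction. The 5 lower genes at 48 h belong to prolyl hydroxylation and secretion, and the other roles gave 0 calls then. Among them, P4ha1 and P4ha2 encode catalytic subunits of prolyl 4-hydroxylase, whose product hydroxyproline keeps the triple helix stable. Mia3 (also called TANGO1), Sec23a and Sec24d load procollagen into COPII carriers at the endoplasmic reticulum.

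Prolyl hydroxylation genes, 9 of 10 at or above the floor, gave 1 higher and 4 lower at 96 h, beside the 42.3% of all genes at that level. P4ha2 had 8.18, 8.12 and 8.33 on the untreated arrays, 8.05 and 7.80 at 12 h, 7.72, 8.22 and 7.90 after 24 h, 7.53 and 7.25 at 48 h, and 7.01 and 6.82 at 96 h. All 48 h and 96 h arrays were below every earlier array. Its change was -0.82 ± 0.15 (SE; limma, adjusted p = 0.0142) at 48 h and -1.30 ± 0.15 (SE; limma, adjusted p = 0.000222) at 96 h. P4ha3, a further catalytic subunit, fell by 0.96 (adjusted p = 0.00186), P3h3, a prolyl 3-hydroxylase family member, by 0.69 (0.00623) and Crtap, a cofactor of prolyl 3-hydroxylation, by 0.61 (0.0118). P4ha1 changed by -0.52 at 48 h (limma, adjusted p = 0.0321), with 8.71 and 8.71 against 9.22, 9.20 and 9.28 in untreated cells, and stood at 9.09 and 8.96 at 96 h without a call. Ppib, the cyclophilin of the 3-hydroxylation complex, rose by 0.33 (adjusted p = 0.0435).

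Secretion genes, 5 of 6 at or above the floor, gave 0 higher and 3 lower at 96 h, again beside 42.3%. Sec24d, the COPII cargo adaptor, had 8.93, 8.98 and 9.04 on the untreated arrays, 8.87 and 8.69 at 12 h, 8.80, 8.69 and 8.86 after 24 h, 8.57 and 8.33 at 48 h, and 7.76 and 7.45 at 96 h. Its arrays at 48 h and 96 h were below all arrays of earlier times. The change was -0.54 ± 0.11 (SE; limma, adjusted p = 0.0196) at 48 h and -1.38 ± 0.11 (SE; limma, adjusted p = 1.86e-05) at 96 h. Mia3, the procollagen receptor at exit sites, fell by 0.50 in the 48 h cells (limma, adjusted p = 0.0174) and dropped by 0.92 in the 96 h cells (0.000128). Sec23a, the inner COPII coat subunit, fell by 0.52 in the 48 h cells (0.0461) and dropped by 0.41 in the 96 h cells (0.0495). The 48 h calls were lost in 14 of 21 alternative settings for Sec23a (adjusted p up to 0.255), 7 for P4ha1, 4 for Sec24d, 3 for Mia3 and 2 for P4ha2.

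Crosslinking enzymes, 4 of 4 at or above the floor, gave 0 higher and 3 lower at 96 h, where 19.7% of all genes at that level were lower. Lox, which oxidises lysines so that fibrils can be linked, had 10.43 and 10.58 at 96 h and 11.35, 11.26 and 11.48 in untreated cells. These groups were well apart, with a change of -0.86 (limma, adjusted p = 0.00156). Loxl4 changed by -0.62 (0.0159) and Loxl1 by -0.54 (0.0131). The Loxl4 call was lost in 3 of 21 alternative settings, among them the fit of only the 2 groups (limma, adjusted p = 0.076). Plod1, which hydroxylates lysines of the chains, was the 1 gene of 5 in lysyl modification that fell, by 0.65 (adjusted p = 0.02). Its call was lost in 6 of 21 alternative settings, among them the replicate number as a block (-0.59, adjusted p = 0.0506). Plod2, of the same family, went the other way without a call, with means of 8.85 at 96 h and 8.53 in untreated cells. Limma called Plod2 higher in several alternative settings, among them array weights (0.37, adjusted p = 0.0176) and centred arrays (0.32, adjusted p = 0.0496). Chaperones gave 0 limma calls of 4, with 1 unadjusted p under 0.05, and collagen receptors 0 of 9, with 0 such p. With the replicate block the chaperone Serpinh1, which binds procollagen, was called (-0.41, adjusted p = 0.0425).

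Rises were found among propeptide processing genes, 2 of 7 at or above the floor, and breakdown genes, 3 of 8 at or above it. Of all genes 11.8% were called higher at 96 h, and of genes at or above the floor 42.3% were called in either direction. Mmp14, the membrane-bound collagenase, had 10.75 and 10.70 at 96 h and 9.24, 9.36 and 9.33 in untreated cells. The change was 1.42 ± 0.24 (SE), 2.67-fold (limma, adjusted p = 0.00233), and Mmp14 was the 1 breakdown gene of 8 that was called. Bmp1, which cuts the C-propeptide from fibrillar procollagens, rose by 0.45 (adjusted p = 0.0295), and Pcolce, which speeds that cut, by 0.51 (0.0455), the 2 called of 7 propeptide genes. With the replicate number as a block the count of pathway genes higher at 96 h was 2. The calls of Ppib, Pcolce and Bmp1 were lost in 15, 14 and 4 of 21 alternative settings.

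**Figure D4:**
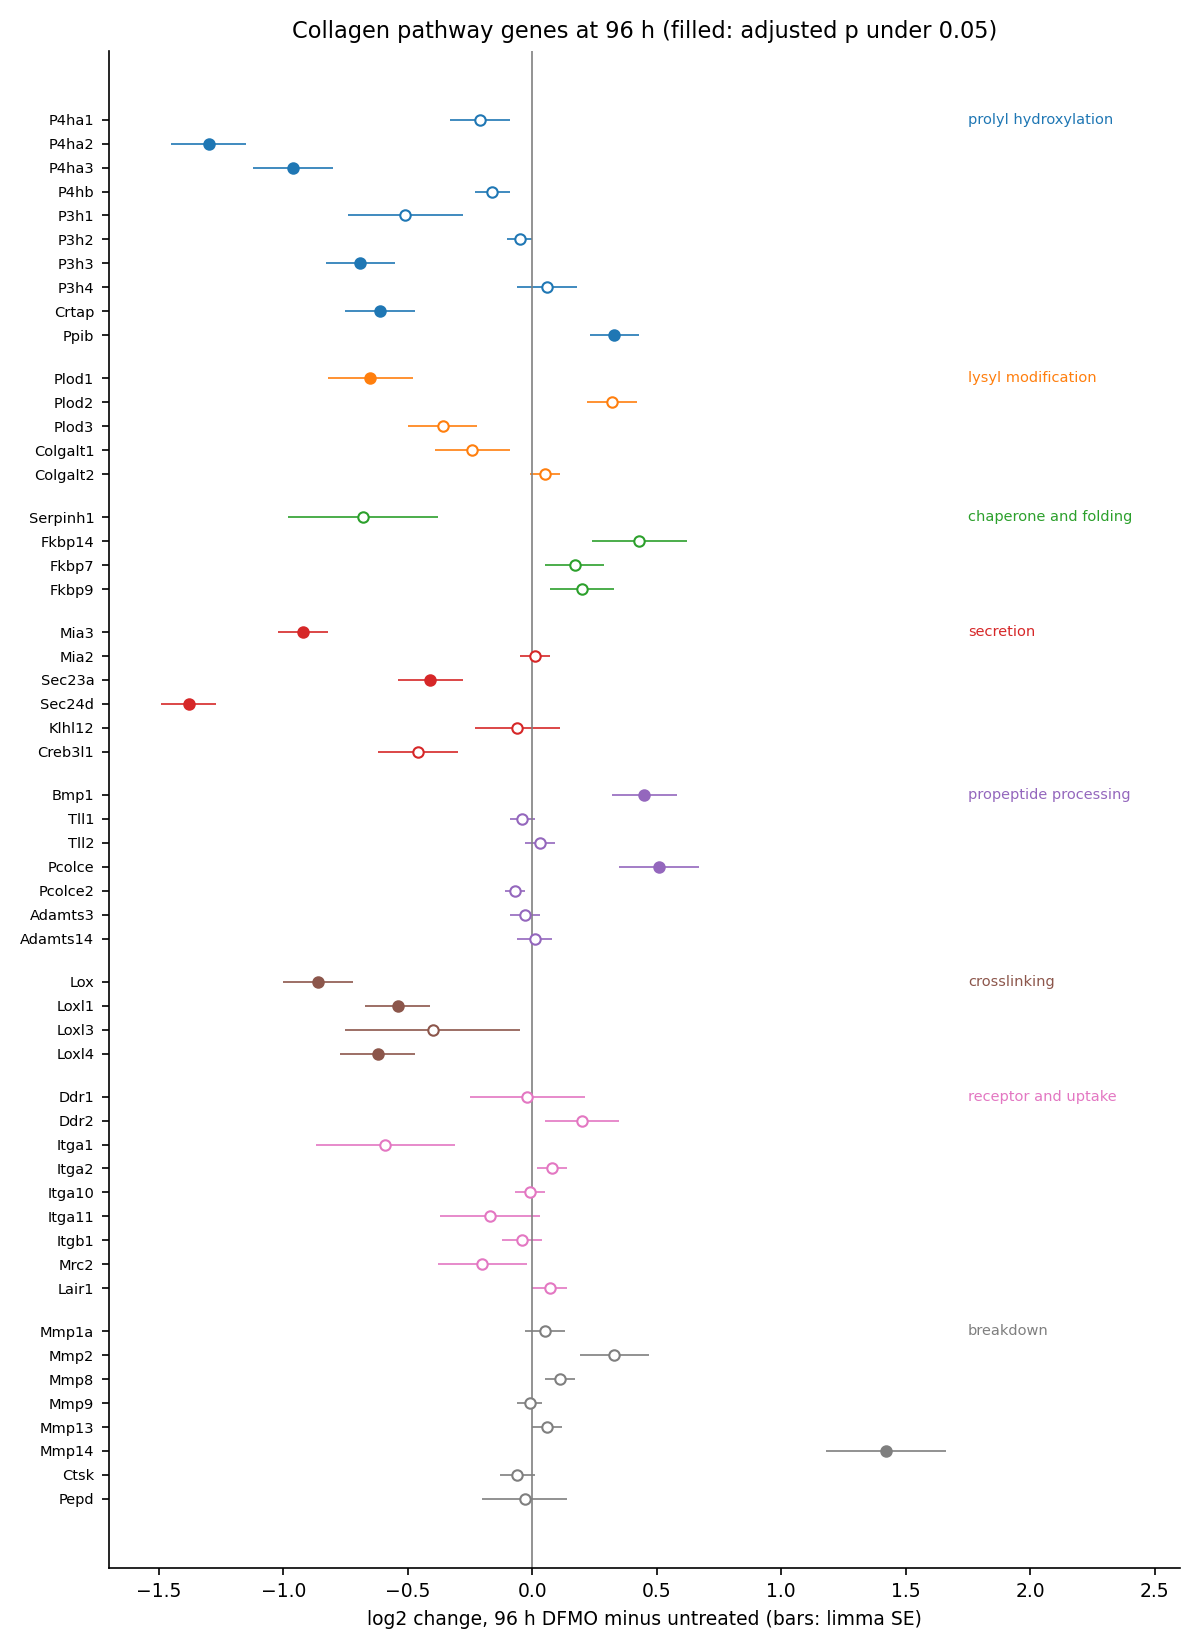
Log2 change of 53 genes of collagen synthesis, export, processing, binding and breakdown at 96 h of DFMO minus untreated, grouped by role, with bars for limma's standard error. Filled points passed an adjusted p under 0.05. Sec24d at -1.38 and P4ha2 at -1.30 lie farthest to the left, and Mmp14 at 1.42 farthest to the right.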

How the data were processed

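Arrays of G1-sorted NIH3T3 cells, 12 in all, measured total RNA. The authors deposited log2 values, 1 row per transcript cluster. Per the submitters' processing notes, RMA (background correction, quantile normalisation and probe summary) and Partek were used, their versions not being stated. Quantile normalisation gives all arrays 1 distribution, so a shift of all transcripts would be hidden. No genome build of the array is named in the sources used here.

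Of 35399 clusters, 21789 had 1 gene symbol in the platform annotation, 1621 several and 11989 none. For 21698 clusters the Entrez identifier was found in the RefSeq table of GRCm38.p6, and 0 symbols needed an update. Genes were represented by the cluster of highest mean, which left 19938 genes, and 0 columns lacked a sample. With limma 3.58.1 (R 4.3.3), a linear model of group means took in every array, followed by contrasts and eBayes. Each time was compared with untreated cells and with the time before, and an F test covered the 4 times. Two-sided p-values received the Benjamini-Hochberg adjustment over all genes, with calls under 0.05. Within-array differences were tested by exact permutation. On simulated data with 200 of 19938 genes changed, the 96 h comparison recovered 88.4% of genes changed 2-fold, 69.0% at 1.5-fold and 32.6% at 1.25-fold, over 10 runs with 10.3 false calls per run. The simulated noise was independent between genes, and changed genes were drawn from above and below the floor alike. Some real arrays deviated together across genes, and in the real 96 h comparison 21.9% of genes were called, far more than were changed here. These rates therefore need not hold for the expressed collagens. The number of arrays limits the precision.

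The members and lists were chosen with earlier results of these data known. Full values are given for collagens called at 48 h or 96 h with their chain partners, and pathway genes named are the 8 largest rises and falls called at 96 h and any called at 48 h. Other genes were named after their values were seen. Same-number replicates of the untreated and 24 h groups deviated together (r = 0.153, 0.287 and 0.581, all over 0.1). Pairs of unlike number reached 0.235, and the labels state no pairing. With the replicate number as a block 0 collagens were called at 24 h too. The other times hold 2 pairs each, too few for this check. Alternatives were array centring and weights, the replicate block, a low-value filter, all clusters, only the 2 groups compared, an intensity trend and each array left out. Leaving out or blocking 3 arrays that deviated together was chosen after seeing the data. Promoter sequences are from RefSeq (GRCm38.p6). Plots used matplotlib 3.10.9, pandas 2.3.3 and Python 3.11.15.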

Additional observations from a re-analysis of the deposited data

Results flagged for a closer look

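Between 48 h and 96 h of DFMO the level differed by limma's test of the step itself for 8 of the genes described. They are 4.55% of the 44 collagens and 11.3% of the 53 pathway genes, where 8.64% of all genes were called. All 8 were at or above the floor, where 16.6% of 9960 genes and 10.5% of 19 collagens were called. Only 36 of the 53 pathway genes reached the floor, so their 11.3% is no excess over all genes at that level. Drug exposure and time in culture rose together in this step too. Among collagens, Col12a1 had a 96 h minus 48 h change of 1.60 (adjusted p = 0.00519) and Col6a3 of -1.09 (adjusted p = 0.0208). Among pathway genes, Mmp14 had a step of 1.00 (adjusted p = 0.0494). Sec24d had -0.84 (adjusted p = 0.00221), Loxl4 -0.79 (0.0187), P4ha3 -0.69 (0.0385), Crtap -0.63 (0.0356) and Mia3 -0.42 (0.0396). Groups of 2 or 3 arrays are too small to test a single array as an outlier.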

How the results depend on the processing

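Col12a1 and Col6a3 kept their calls against untreated cells at 96 h under all 21 alternatives, with changes of 1.39 to 1.77 and -1.62 to -1.40, and no result reversed. With only the 2 groups compared in the fit, 1 collagen (fibrillar, Col1a2) was lower at 48 h, and at 96 h 1 fibrillar (Col3a1) and 1 network gene (Col4a6) were higher, with FACIT genes at 1 higher and 1 lower (Col16a1). The low-value filter gave 1 network gene higher and 1 FACIT gene lower at 96 h, and the intensity trend 1 network gene higher. Fibrillar genes lower at 96 h were 1 with the replicate block, with all clusters, and with the 3 co-deviating arrays left out or as a block. Both settings of these 3 arrays gave 1 FACIT gene lower, and leaving them out gave 1 FACIT gene, and so 1 collagen, higher. Pathway genes higher at 48 h were 1 with array weights and with the 3 arrays left out or blocked. Pathway genes lower at 48 h were 3 with all clusters and 2 without the 3 arrays. Pathway genes higher at 96 h were 2 with the replicate block, with all clusters, and with the 3 arrays left out or blocked. Leaving out 1 array at a time, collagens at 96 h ranged over 2 to 3 higher and 1 to 4 lower, fibrillar lower 0 to 2, network higher 0 to 1 and FACIT lower 0 to 1. The step from 48 h to 96 h gave 1 to 2 higher and 0 to 1 lower, and the F test 0 to 4. Pathway genes ranged over 0 to 1 higher and 0 to 5 lower at 48 h, and 1 to 5 higher and 6 to 12 lower at 96 h. Col9a2, below the floor, was called (0.36, adjusted p = 0.00892) without 96 h replicate 1 alone. The replicate block changed no other count of collagen calls by over 1.5 times. The cause of these changes was not tested. Centring moved the median of all genes by 0.03 at 48 h and 0.00 at 96 h. Levels near the floor keep background, which limits Col20a1, Col5a3, Col11a1 and Col23a1.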
